A study of Mus musculus with 12 samples.

Results

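The 5hmC of Th1 cells was compared with that of naive T cells, gene by gene, across the mouse genome. 5hmC is 5-hydroxymethylcytosine, an oxidised form of DNA methylation. A gene area is the stretch from the start to the end of an annotated gene. Of the 37752 gene areas listed, 208 were further copies of a repeated name and 14669 spanned under 3000 bp, which left 22875 gene areas, or 60.9% of the 37544 names, to describe. The Th1 side was 1 library of DNA immunoprecipitated with an anti-5hmC antibody, from cells labelled Th1. The naive side was 1 such library from cells labelled naive T cells. The same antibody was used on Th2 cells and on cells labelled iTreg and Th17, with 1 library each, and the 5 cell types also had 1 library each for 5-methylcytosine (5mC). Input DNA and a control IgG library came from Th17 cells alone. The study worked with CD2(Cre)Tet2(f/f) mice, in which a Cre driven by CD2 regulatory sequence deletes the floxed Tet2 gene in lymphoid cells, and with wild-type littermates of mixed background. Neither the genotype nor the age of the mice behind each library is given in the sources used here, nor how long and with which cytokines the Th1 cells were cultured.

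Tet enzymes oxidise 5mC to 5hmC, which is both an intermediate of demethylation and a mark that persists, often over the bodies and enhancers of genes in use. When a naive CD4 T cell meets antigen in the presence of IL-12 and interferon gamma, it can become a Th1 cell, which makes interferon gamma under the transcription factor T-bet, the product of Tbx21. That change switches on an effector programme and switches off much of the programme that keeps naive cells quiescent and circulating through lymph nodes.

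With 1 library per cell type there is no replicate check, so no difference below carries a test, and each compares 2 libraries. A gene area is called gained where the Th1 signal was at least 2-fold higher than the naive signal, that is by 1 or more on the log2 scale after adding 0.2 to both, and lost where it was at least 2-fold lower. Adding 0.2 understates the change of gene areas with low signal. The words rose and fell are used only of gene areas past that size. Over the gene areas, the median signal was 13.5 in Th1 cells and 16.2 in naive cells, against 1.0 for IgG and 1.8 for input DNA, both from Th17 cells. The sequencing depth of the libraries is unknown, so a gene area with low signal carries an error that cannot be stated. The values did not grow with gene length: the medians of 5 equal-sized length classes ran between 11.7 and 14.3 in Th1 cells and between 14.5 and 17.6 in naive cells. In bulk DNA of this kind, a change in the share of cells that carry 5hmC at a gene and a change in the amount per cell cannot be told apart.

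The markers fixed for the labels split as follows. The summed signal of 6 Th1 markers was 185.0 in Th1 cells and 130.6 in naive cells, with 3 of the 6 higher in Th1. The summed signal of 6 naive T cell markers was 223.1 in Th1 cells and 583.3 in naive cells, with 0 of the 6 higher in Th1. The other helper markers did not set Th1 cells apart: 4 of 4 Th17 markers, 2 of 4 Th2 markers and 2 of 4 regulatory T cell markers were higher in Th1 than in naive cells. The Th2 sum was 126.7 in Th1 cells and 170.8 in naive cells, and the regulatory T cell sum 120.9 in Th1 cells and 104.6 in naive cells. None of the markers of Th1, Th2, Th17, regulatory T, CD8 T, NK, B or myeloid cells was at 0 in either library. The libraries labelled iTreg and Th17 went against their labels at Il17a, which encodes the cytokine that defines Th17 cells. Its signal was 10.8 in Th1, 4.3 in Th2, 31.3 in the library labelled iTreg, 8.8 in the library labelled Th17 and 7.6 in naive cells. Those 2 libraries are therefore named by label only, and no call of Th1 against naive cells uses them.

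The gene areas differed in how many CG dinucleotides their start sites hold, and these promoters show the range. They are taken from RefSeq on GRCm38.p6, from 250 bases before to 50 after the gene start, printed 5' to 3' on the gene's strand. CG is in capitals, and because CG reads the same on both strands, 1 count covers both. Of all 32851 such promoters, 94.6% hold a CG, 43.5% hold 10 or more, and the median is 7. The 4 shown first belong to gene areas that gained 5hmC, with 1 CG in Klrc1 (chr6:129678924-129679223, minus strand), 7 in Ifng (chr10:118440796-118441095, plus strand), 21 in Tbx21 (chr11:97115282-97115581, minus strand) and 54 in Nfil3 (chr13:52980990-52981289, minus strand). The other 3 belong to gene areas that lost it, with 8 in Cd3e (chr9:45009562-45009861, minus strand), 24 in Tuba4a (chr1:75219245-75219544, minus strand) and 31 in Map4k2 (chr19:6340910-6341209, plus strand). The signal covers whole gene areas on mm9 and does not measure these windows themselves.
Klrc1: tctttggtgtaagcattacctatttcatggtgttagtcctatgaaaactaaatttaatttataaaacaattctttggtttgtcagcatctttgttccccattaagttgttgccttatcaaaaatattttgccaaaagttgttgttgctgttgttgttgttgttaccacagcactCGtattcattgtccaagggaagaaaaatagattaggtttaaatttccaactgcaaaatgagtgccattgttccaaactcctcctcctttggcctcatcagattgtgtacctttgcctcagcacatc
Ifng: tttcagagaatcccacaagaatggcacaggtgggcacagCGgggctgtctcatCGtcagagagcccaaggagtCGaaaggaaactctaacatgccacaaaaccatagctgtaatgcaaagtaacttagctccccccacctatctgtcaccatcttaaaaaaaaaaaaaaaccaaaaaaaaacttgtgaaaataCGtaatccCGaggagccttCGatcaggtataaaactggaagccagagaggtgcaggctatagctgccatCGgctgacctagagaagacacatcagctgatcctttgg
Tbx21: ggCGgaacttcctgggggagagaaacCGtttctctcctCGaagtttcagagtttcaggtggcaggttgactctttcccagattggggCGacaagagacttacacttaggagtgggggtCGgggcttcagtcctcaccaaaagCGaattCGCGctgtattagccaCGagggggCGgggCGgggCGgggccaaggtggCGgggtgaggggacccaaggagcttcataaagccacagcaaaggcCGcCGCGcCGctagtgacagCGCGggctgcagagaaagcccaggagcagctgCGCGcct
Nfil3: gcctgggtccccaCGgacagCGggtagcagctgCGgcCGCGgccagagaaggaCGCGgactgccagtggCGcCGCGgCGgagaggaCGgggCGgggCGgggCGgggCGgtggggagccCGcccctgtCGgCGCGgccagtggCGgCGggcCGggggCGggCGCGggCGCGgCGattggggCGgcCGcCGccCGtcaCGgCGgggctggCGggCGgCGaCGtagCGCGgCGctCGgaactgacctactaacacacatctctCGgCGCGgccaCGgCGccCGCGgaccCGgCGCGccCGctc
Cd3e: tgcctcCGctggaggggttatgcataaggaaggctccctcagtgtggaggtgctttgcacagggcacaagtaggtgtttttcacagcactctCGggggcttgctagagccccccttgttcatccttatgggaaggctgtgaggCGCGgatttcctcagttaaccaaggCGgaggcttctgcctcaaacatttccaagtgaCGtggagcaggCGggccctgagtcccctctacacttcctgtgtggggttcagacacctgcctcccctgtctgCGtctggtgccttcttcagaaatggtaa
Tuba4a: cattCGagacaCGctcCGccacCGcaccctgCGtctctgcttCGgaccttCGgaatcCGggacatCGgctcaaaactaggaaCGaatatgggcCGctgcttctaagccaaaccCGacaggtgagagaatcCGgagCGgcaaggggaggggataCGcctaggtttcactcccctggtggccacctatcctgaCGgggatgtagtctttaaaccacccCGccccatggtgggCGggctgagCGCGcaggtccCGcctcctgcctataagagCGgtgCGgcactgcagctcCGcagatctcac
Map4k2: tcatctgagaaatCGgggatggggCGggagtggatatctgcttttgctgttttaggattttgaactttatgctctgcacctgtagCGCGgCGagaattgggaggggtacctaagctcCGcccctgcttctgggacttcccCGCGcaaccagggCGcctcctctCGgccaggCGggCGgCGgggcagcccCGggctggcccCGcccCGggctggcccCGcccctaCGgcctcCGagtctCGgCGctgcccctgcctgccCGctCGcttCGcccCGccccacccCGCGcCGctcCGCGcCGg

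Losses outnumbered gains across the genome. In Th1 cells against naive cells, 660 of 22875 gene areas (2.89%) gained 5hmC and 3099 (13.5%) lost it, or 4.70 lost for each gained. The median difference was -0.23 on the log2 scale, with quartiles of -0.70 and 0.19. Of all gene areas, 7979 lay above 0, 14354 below 0 and 542 at 0. How the authors scaled the libraries to each other is not given in the sources used here, and the split depends on it. With each library centred on its median, which removes that shift of 0.23, 1258 gene areas gained and 1707 lost 5hmC. With the libraries forced to the same distribution by quantile normalisation, 1286 gained and 1247 lost it. Centring raises every difference by 0.23, so it can end losses but no gain. All 660 gains and 1707 of the losses were thus also called after centring. After quantile normalisation, 585 of the gains and 1190 of the losses were. In the text below, a call that ends under one of these scalings is named where a result turns on it.

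The IgG library marked 564 gene areas (2.47%) as background, meaning that its signal was at least 50% of the higher of the Th1 and naive values. Of these, 21 were gained and 18 were lost. Without them, 639 gene areas gained and 3081 lost 5hmC. Background of this kind therefore made up few of the calls, as far as an IgG library from Th17 cells shows it.

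Gains sat at gene areas with little 5hmC, and losses at gene areas with much of it. The gained gene areas had a median signal of 8.25 in Th1 cells and 3.3 in naive cells. The lost gene areas had a median of 15.7 in Th1 cells and 38.1 in naive cells. Of the gains, 375 had a higher value below 10, where a small step in signal already doubles the value. Among the 17442 gene areas whose higher value was at least 10, 285 (1.63%) were gained and 2839 (16.3%) were lost. Names of predicted genes, microRNAs and olfactory or vomeronasal receptors made up 61.2% of the gains and 23.3% of the losses, against 30.5% of all gene areas. Such names were thus more frequent among the gains than among the losses.

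Ordered by naive signal, the lowest decile (0 to 4.7) held 18.3% gained and 6.98% lost gene areas, with a median difference of 0.30. The highest decile (45.4 to 2490) held 0.219% gained and 53.8% lost, with a median difference of -1.05. In that highest decile the median signal was 31.5 in Th1, 33.6 in Th2, 33.2 in the library labelled iTreg, 25.2 in the library labelled Th17 and 60.4 in naive cells. The naive value enters both this order and the difference, so an order that uses neither library was set beside it. By the mean of the Th2, iTreg and Th17 libraries, the lowest decile held 13.1% gained and 10.3% lost, with a median of 0. The highest decile of that order held 2.01% gained and 19.3% lost, with a median of -0.24 and median signals of 37.7 in Th1 cells and 47.7 in naive cells. The slope with level was thus shallower when the level came from other libraries. Its decile with the most losses was the one below the highest, with 20.7%.

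**Figure D1:**
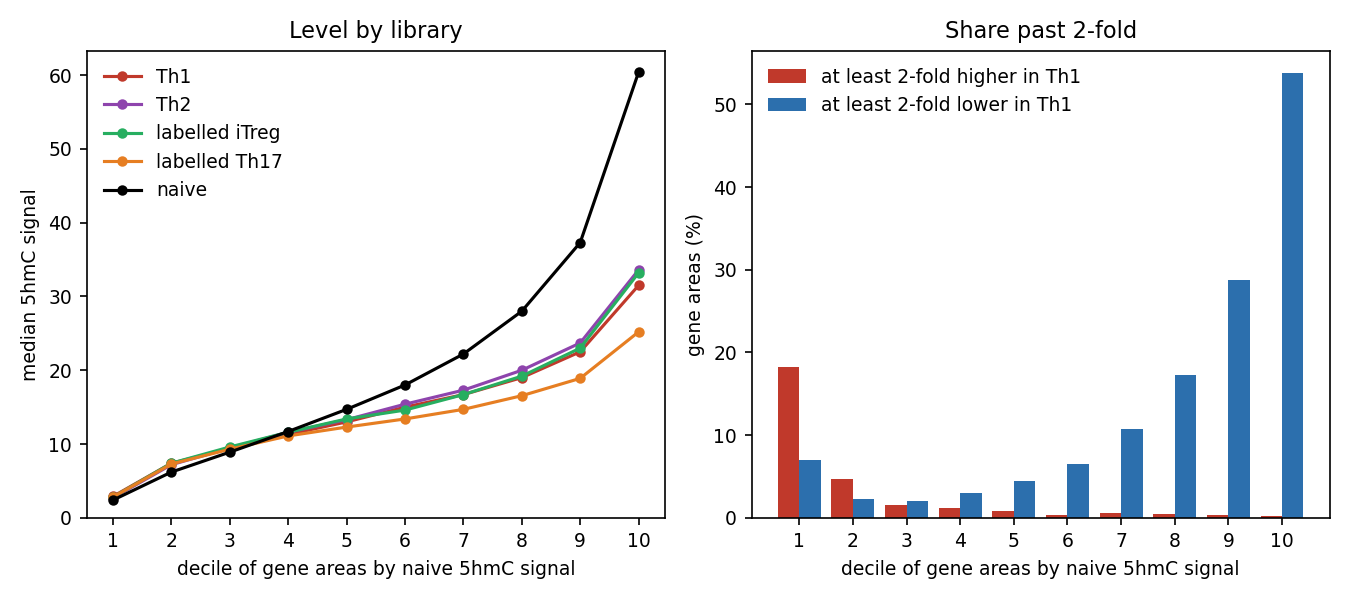
Left, median 5hmC signal of each of the 5 libraries, and right, share of gene areas that gained (red) and lost (blue) 5hmC in Th1 against naive cells, in percent, both by decile of the naive signal. In the highest decile the 4 differentiated libraries lie between 25.2 and 33.6, below naive cells at 60.4, and 53.8% of gene areas are lost.

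Of the 5 gene areas in the highest naive decile that gained 5hmC, 4 are named here, after their values were seen. Lefty2, which encodes a secreted inhibitor of Nodal signalling, had a signal of 215.0 in Th1 cells and 84.1 in naive cells. Camta1, a calmodulin-binding transcription activator, had 152.3 in Th1 cells and 71.7 in naive cells. Their Th2, iTreg and Th17 libraries also lay above naive cells. Tnfsf14 is described below. Lingo4, with 362.5 in Th1 cells and 48.8 in naive cells, had an IgG signal of 201.2 and was marked as background.

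Gained and lost gene areas differed in properties that the comparison did not use. Lost genes had CG-rich promoters: among protein-coding genes off chromosome 18, 2073 lost genes with a promoter in RefSeq had a median of 21 CG, and 79.6% held 10 or more. The 270 gained genes with a promoter had a median of 3 CG, and 25.6% held 10 or more. The 11613 genes in neither class had a median of 16, with 65.0% at 10 or more. A share of 9.63% of gained and 0.772% of lost promoters held no CG. At like naive level this order held only in part. In the top quintile of naive signal, 31.3% of genes with 0 to 4 CG, 35.2% of those with 5 to 14 and 46.3% of those with 15 or more lost 5hmC. In the lowest quintile, 13.8%, 7.72% and 3.41% of the same classes gained it. There 4.77%, 3.20% and 2.61% lost it, the reverse of the order of losses in the top quintile. In the next quintile up the lost shares were 2.39%, 2.65% and 2.37%, with no such order. In the middle quintile the gained shares were 0.472%, 0.983% and 0.548%, also without it. Nfil3, with 54 CG and a gain, shows that single genes departed from the medians of their class.

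Gene type and length moved with the classes as well. Protein-coding genes made up 49.8% of gained and 82.5% of lost gene areas, against 76.5% of those in neither class, and pseudogenes 17.3%, 2.87% and 4.84% in the same order. The median length was 8156 bp for gained, 12264 bp for lost and 20232 bp for the remaining gene areas. The shortest length quintile (3001 to 6784 bp) held 6.27% gained and 19.7% lost, and the longest (55332 to 3171118 bp) held 0.809% gained and 7.26% lost. Both kinds of call thus grew rarer with length. How far the number of reads behind a short gene area enters this was not tested. On either side of the length limit, the 172 gene areas of 3000 to 3099 bp held 16 gained and 38 lost with a median of -0.28, and the 197 of 2900 to 2999 bp held 7 gained and 54 lost with a median of -0.41.

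Chromosomes differed in the median. Chromosome X stood at 0.00, with medians of 7.7 in Th1 cells and 7.6 in naive cells, 70 gained (6.48%) and 80 lost (7.40%) of 1081 gene areas. Chromosome 11 was lowest with a median of -0.41 and 299 lost gene areas (19%), followed by chromosome 17 at -0.38 with 201 lost (18.8%). Low naive signal on X moved with this. Within quintiles of naive signal, the X median was 0.09, -0.04, -0.41, -0.66 and -0.80 from lowest to highest, against 0.28, 0.02, -0.21, -0.48 and -0.89 on the autosomes. X lay below the autosomes in 4 of these 5 classes.

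The genes that define Th1 cells gained 5hmC at their core and not across the whole programme. Of 23 measured Th1 genes, 4 (17.4%) rose, 3 (13.0%) fell and the rest stayed within 2-fold. Over all gene areas 2.89% rose and 13.5% fell. Of the Th2 genes 15% and of the cytokine genes 18.2% rose, so such a share was not particular to Th1 genes. The list median was -0.24 against -0.23 over all gene areas. The list median turned to 0.19 under quantile normalisation. Tbx21 (chr11:96959320-96976644), which encodes T-bet, the master regulator of Th1 cells, had a signal of 54.8 in Th1, 34.9 in Th2, 20.0 in the library labelled iTreg, 18.4 in the library labelled Th17 and 21.7 in naive cells. Th1 was the highest of the 5 and exceeded naive cells by 1.33 on the log2 scale. Ifng (chr10:117878102-117882947), which encodes interferon gamma, had 22.6 in Th1, 14.3 in Th2, 14 in the library labelled iTreg, 8.9 in the library labelled Th17 and 10.0 in naive cells, a difference of 1.16. The Th17 library alone lay below naive cells there. Gzmb (chr14:56877692-56881096), the granule protease granzyme B, had 35.1 in Th1, 17.1 in Th2, 14.2 in the library labelled iTreg, 14.2 in the library labelled Th17 and 18.9 in naive cells. Its difference of 0.89 stayed under 2-fold, and passed it after centring (1.11) and after quantile normalisation (1.39). IgG signal was 2.7, 0.4 and 1.6 at these 3 genes.

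**Figure D2:**
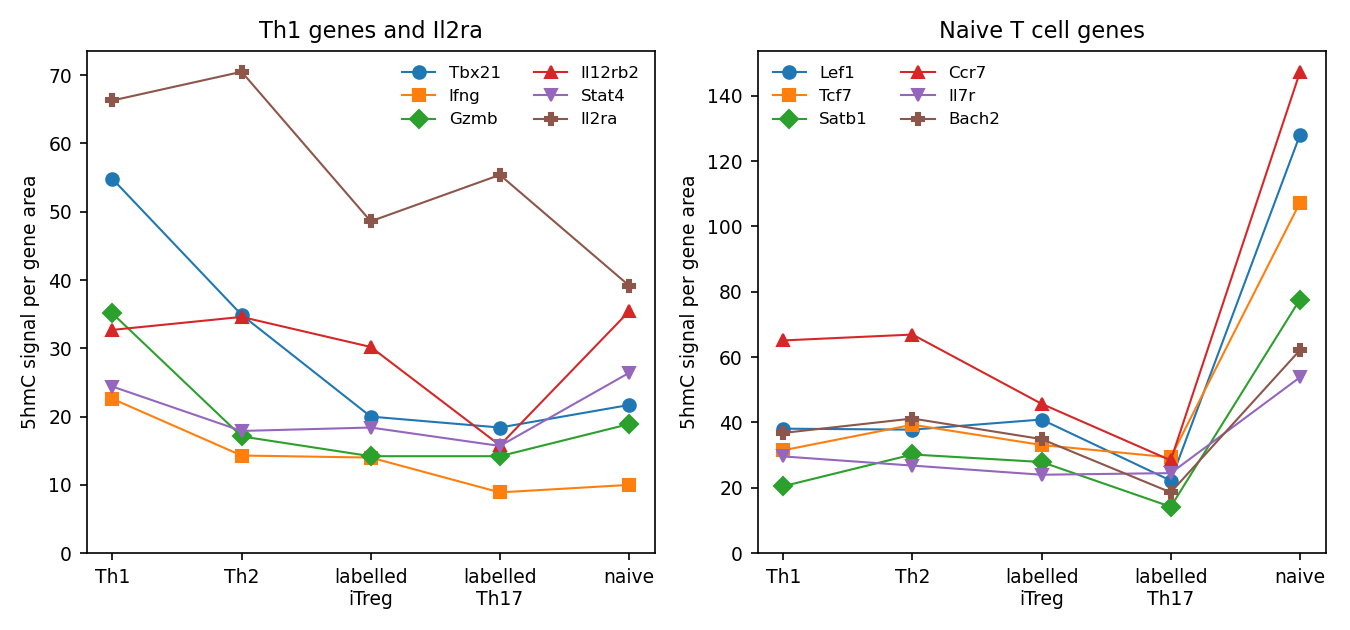
5hmC signal in the Th1, Th2, iTreg-labelled, Th17-labelled and naive libraries at effector and naive genes, 1 point per library, with lines that only join the points of a gene. Th1 is highest at Tbx21, Ifng and Gzmb, and naive cells are above all other libraries at Lef1, Tcf7, Satb1, Ccr7, Il7r and Bach2.

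The other 2 risers of the Th1 list were Ccl5 and Bhlhe40. Ccl5, a chemokine that draws T cells and monocytes, had 42.8 in Th1, 41.6 in Th2, 43.9 in the library labelled iTreg, 27.9 in the library labelled Th17 and 13.0 in naive cells. Bhlhe40, a transcription factor that promotes inflammatory cytokines in T helper cells, had 53.1 in Th1, 75.3 in Th2, 37.0 in the library labelled iTreg, 37.5 in the library labelled Th17 and 19.6 in naive cells. At both genes every differentiated library lay above naive cells, with Th1 next to the highest at each. Tbx21, Ifng, Ccl5 and Bhlhe40 kept their gains under quantile normalisation. Centring, which raises every difference, could not end them.

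The receptor and signalling genes of the Th1 list showed no gain past 2-fold. Il18rap, an IL-18 receptor chain, had 16 in Th1 cells and 11 in naive cells (0.53). Stat4, which carries the IL-12 signal, had 24.4 in Th1 cells and 26.4 in naive cells (-0.11). Il12rb2, the inducible IL-12 receptor chain, had 32.7 in Th1 cells and 35.4 in naive cells (-0.11), and Il18r1, the other IL-18 receptor chain, had 34.9 in Th1 cells and 43.3 in naive cells (-0.31). The differences of Stat4, Il12rb2 and Il18r1 lay near the median of all gene areas. Eomes, the T-box factor related to T-bet, had 12.7 in Th1 cells and 20.4 in naive cells (-0.68). Prdm1, encoding Blimp-1, had 37.0 in Th1 cells and 50.4 in naive cells (-0.44). Among the 3 genes that fell were Cxcr6, a chemokine receptor, with 4.7 in Th1 cells and 13.2 in naive cells (-1.45), and Irf1, an interferon-induced factor, with 58.9 in Th1 cells and 141.2 in naive cells (-1.26). The fall of Irf1 ended under quantile normalisation, at -0.61. Cxcr3, a Th1 homing receptor, spans 2611 bp and was too short for the comparison.

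Cytokine genes leaned to gains. Of 33 measured, 6 (18.2%) rose and 1 (3.03%) fell, against 2.89% and 13.5% of all gene areas, with a median of 0.26. Tnfsf14, which encodes the T cell costimulator LIGHT, had 113.3 in Th1, 123.8 in Th2, 94.6 in the library labelled iTreg, 66.0 in the library labelled Th17 and 48.7 in naive cells (1.21). Il22, a cytokine that acts on epithelia, had 25 in Th1 cells and 10.0 in naive cells (1.30). Il15, which sustains memory T and NK cells, had 10.7 in Th1 cells and 4.3 in naive cells (1.28). Il10, the anti-inflammatory cytokine, had 29.3 in Th1, 51.7 in Th2, 24.2 in the library labelled iTreg, 8.1 in the library labelled Th17 and 12.6 in naive cells (1.20), and its neighbour Il24 had 26.7 in Th1 cells and 12.0 in naive cells (1.14). With Ifng, these are the 6 risers. Each kept its call under quantile normalisation, and centring can end no gain. Il16, a chemoattractant made by resting lymphocytes, fell to 12.8 in Th1 cells, against 31.0 in naive cells (-1.26), and this call ended under quantile normalisation. Il2, the T cell growth factor, had 18.2 in Th1 cells and 16.9 in naive cells, and Il21 had 71.2 in Th1 cells and 59.6 in naive cells. Both stayed close to the naive level.

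Genes of the other helper lineages did not split cleanly from Th1. Of 20 Th2 genes, 3 (15%) rose and 3 (15%) fell, against 2.89% and 13.5% of all gene areas, with a median of 0.10. Nfil3, a basic leucine zipper factor of many lymphoid lineages, had 69.4 in Th1, 103.0 in Th2, 50.2 in the library labelled iTreg, 26.8 in the library labelled Th17 and 15 in naive cells (2.20). Il10 and Il24 were the other Th2 genes that rose. Gata3, the Th2 master regulator, which naive T cells also express, had 40.1 in Th1, 75.2 in Th2, 194.9 in the library labelled iTreg, 30.4 in the library labelled Th17 and 99.6 in naive cells (-1.31). Th1 was among the lowest of the 5, and the call ended under quantile normalisation (-0.64). Il17rb, the IL-25 receptor chain, fell to 19 in Th1 cells, against 61.8 in naive cells (-1.69). Stat6, which carries the IL-4 signal, had 65.0 in Th1 cells and 130.7 in naive cells (-1.01), a call that ended after centring (-0.78). Il4 itself had 22.6 in Th1, 82.6 in Th2, 20.2 in the library labelled iTreg, 26.2 in the library labelled Th17 and 26.2 in naive cells, so that only Th2 was raised.

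Of 23 Th17 genes, 2 (8.70%) rose and 1 (4.35%) fell. Among 19 regulatory T cell genes, Il10 and Socs2 (10.5%) rose and 2 (10.5%) fell. Over all gene areas 2.89% rose and 13.5% fell. Il22, described above, was among the Th17 genes that rose. Foxp3, the regulatory T cell factor, had 13.0 in Th1 cells and 24.2 in naive cells (-0.89). Il2ra, the high-affinity IL-2 receptor chain that activated T cells carry, had 66.3 in Th1, 70.5 in Th2, 48.6 in the library labelled iTreg, 55.4 in the library labelled Th17 and 39.2 in naive cells. Its difference of 0.76 stayed under 2-fold, but every differentiated library was above naive cells.

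The AP-1 and basic leucine zipper genes moved both ways. Of 25, 3 (12%) rose and 5 (20%) fell, against 2.89% and 13.5% of all gene areas, with a median of -0.43. Batf3, a BATF-family factor, had 49.5 in Th1, 55.9 in Th2, 15 in the library labelled iTreg, 15.7 in the library labelled Th17 and 13.5 in naive cells (1.86). Th1 and Th2 stood apart from the other 3 libraries. Fosb, an immediate early AP-1 subunit, had 24.7 in Th1 cells and 10.3 in naive cells (1.25), and Nfil3 was the third. Nfe2l2, the oxidative stress factor NRF2, had 26.4 in Th1 cells and 81.4 in naive cells (-1.62), and Bach1, its heme-regulated antagonist, had 28.4 in Th1 cells and 78.5 in naive cells (-1.46). Batf, which binds with IRF4 in effector cells, stayed level at 38.5 in Th1 cells and 41.2 in naive cells.

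The naive programme lost 5hmC. Of 29 measured naive identity genes, 15 fell and none rose, with a median of -1.01, and 28 of the 29 lay below 0. Their median naive signal of 69.7 puts them in the highest decile, in which 53.8% of gene areas fell, so their share of losses is near that of gene areas with as much naive signal. Lef1 (chr3:130813388-130926251), a TCF-family factor of naive T cells, had 38.1 in Th1, 37.8 in Th2, 40.9 in the library labelled iTreg, 22.2 in the library labelled Th17 and 127.9 in naive cells (-1.74). Tcf7 (chr11:52066105-52096072), which encodes TCF-1, had 31.5 in Th1, 39.3 in Th2, 33.1 in the library labelled iTreg, 29.3 in the library labelled Th17 and 107.2 in naive cells (-1.76). Satb1 (chr17:51875511-51972614), a chromatin organiser of T cells, had 20.5 in Th1, 30.2 in Th2, 27.9 in the library labelled iTreg, 14.2 in the library labelled Th17 and 77.6 in naive cells (-1.91). At all 3 genes the 4 differentiated libraries lay far below naive cells, which they share as their comparison.

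Receptors that hold naive cells in circulation fell less evenly. S1pr1, the lymph node exit receptor, had 25.7 in Th1, 35.8 in Th2, 37.4 in the library labelled iTreg, 22.4 in the library labelled Th17 and 91.4 in naive cells (-1.82). Ccr7, the lymph node entry receptor, had 65.1 in Th1, 66.9 in Th2, 45.7 in the library labelled iTreg, 28.4 in the library labelled Th17 and 147.1 in naive cells (-1.17), a call that ended after centring (-0.95) and quantile normalisation (-0.52). Il7r, the survival cytokine receptor, had 29.6 in Th1 cells and 53.8 in naive cells (-0.86). Bach2, a repressor of effector differentiation, had 36.8 in Th1 cells and 62.1 in naive cells (-0.75). Both stayed under 2-fold. The largest fall of the list was at Dusp6, an ERK phosphatase, with 10.9 in Th1 cells and 47.4 in naive cells (-2.10). Dusp4, a related phosphatase, was the 1 member above 0, with 57.6 in Th1 cells and 42.5 in naive cells (0.44). After centring 12 of the 29 fell, and after quantile normalisation 6 fell and 1 rose.

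The T cell receptor complex and its proximal kinases and adaptors fell as often. Of 36 measured genes, 19 fell and none rose, with a median of -1.08, and all 36 lay below 0. Their median naive signal was 62.25, also within the highest decile. Lat, the membrane adaptor that assembles the signalling complex, had 49.9 in Th1, 41.1 in Th2, 64.0 in the library labelled iTreg, 30.5 in the library labelled Th17 and 205.7 in naive cells (-2.04). Lck, the kinase that phosphorylates the receptor chains, had 68.0 in Th1, 76.0 in Th2, 81.2 in the library labelled iTreg, 50 in the library labelled Th17 and 223.1 in naive cells (-1.71). Cd3e, an invariant receptor chain, had 25.8 in Th1, 27.4 in Th2, 35.9 in the library labelled iTreg, 27 in the library labelled Th17 and 95.6 in naive cells (-1.88). Naive cells were the highest library at all 3. Rltpr, a CD28 pathway scaffold, had the largest fall, with 12.0 in Th1 cells and 51.6 in naive cells (-2.09). Cd4, the coreceptor of helper T cells, fell to 50.9 in Th1 cells, against 126.2 in naive cells (-1.31). That call ended under quantile normalisation (-0.64). Zap70 (-0.90), Cd247 (-0.89) and Cd28 (-0.99) stayed under 2-fold. Malt1, with 39.5 in Th1 cells and 44.3 in naive cells, was marked as IgG background. After centring 14 of the 36 fell, and after quantile normalisation 8.

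Of 26 genes that restrain receptor signalling, 7 (26.9%) fell and none rose. The lost share was 13.5% over all gene areas and 53.8% in the highest naive decile, where the list's median naive signal of 63.7 lies. Quantile normalisation left 1 fall and a median of -0.06. Dgka, the diacylglycerol kinase, had 29.0 in Th1 cells and 110.3 in naive cells (-1.92), Cbl, a ubiquitin ligase, had 23.7 in Th1 cells and 68.2 in naive cells (-1.52), and Ptpn6, which encodes SHP-1, had 42.6 in Th1 cells and 120.3 in naive cells (-1.49). Rnf128, the ubiquitin ligase GRAIL, was highest in the list with 12.9 in Th1 cells and 8.9 in naive cells (0.53). Of the 7 Gimap genes, GTPases of lymphocyte survival that share 1 cluster and near copies, 5 (71.4%) fell, none after quantile normalisation. Their median naive signal of 65 also lies in the highest decile, with 53.8% lost, against 13.5% of all gene areas. Gimap1 had 29.6 in Th1 cells and 82.1 in naive cells (-1.47), and Gimap6 had 33.4 in Th1 cells and 45.2 in naive cells (-0.43). Of 24 inhibitory and costimulatory receptors 3 fell (12.5%, near the 13.5% of all gene areas) and none rose.

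Of 38 cytokine receptor genes, 12 (31.6%) fell and none rose, with a median of -0.64. Their median naive signal was 45.15, in the decile in which 28.7% of gene areas fell and 0.308% rose. The cytokine genes, with 18.2% risen and a median of 0.26, had a median naive signal of 17.9, in the decile in which 6.53% fell and 0.389% rose. The lists thus differed in naive level, and its part in their difference was not tested. Both list medians kept their sign under both scalings, but quantile normalisation gave 4 rises and 2 falls among the receptors. Tnfrsf1a, the TNF receptor, had 21.4 in Th1 cells and 75 in naive cells (-1.80). Il27ra, the IL-27 receptor, had 33.5 in Th1 cells and 95 in naive cells (-1.50), and Ifngr1, the ligand-binding interferon gamma receptor chain, had 21.8 in Th1 cells and 47.0 in naive cells (-1.10). Il2rg, the common gamma chain, had 19.9 in Th1 cells and 41.3 in naive cells (-1.05), unlike Il2rb, another chain of the same receptor, with 71.3 in Th1 cells and 54.9 in naive cells (0.38). The IL-2 receptor chains thus differed in direction, although the calls of Il2rg and Ifngr1 ended after centring.

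The JAK and STAT genes divided within families. Of 25 genes, 2 (8%) rose and 8 (32%) fell, with a median naive signal of 49.1, in the decile with 53.8% lost. Jak1, the kinase of the common gamma chain and interferon receptors, had 20.0 in Th1, 24.4 in Th2, 26.6 in the library labelled iTreg, 18.4 in the library labelled Th17 and 64.3 in naive cells (-1.67). Jak2, a kinase of the IL-12 and interferon gamma receptors, had 65.1 in Th1, 94.8 in Th2, 30.1 in the library labelled iTreg, 25.6 in the library labelled Th17 and 31.7 in naive cells (1.03). These kinases moved in opposite directions under all 3 scalings. Socs2, a feedback inhibitor, rose with 9.9 in Th1 cells and 4.8 in naive cells (1.01). Its relative Cish had 138.8 in Th1 cells and 97.2 in naive cells (0.51). Tyk2 (-1.07) and Stat5b (-1.20) fell. Both falls were close to 2-fold and ended after centring.

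Of 36 interferon regulatory and response genes, 8 (22.2%) fell and 1 (2.78%) rose, against 13.5% and 2.89% of all gene areas. Their median naive signal of 35.8 lies in the decile with 28.7% lost. Irf9, part of the type I interferon transcription complex, had 35.8 in Th1 cells and 105.8 in naive cells (-1.56), and Irf7 had 19 in Th1 cells and 54.6 in naive cells (-1.51). Tap1, the antigen peptide transporter, had 74.2 in Th1 cells and 203.8 in naive cells (-1.46). The rise was at Ifi205, with 6.4 in Th1 cells and 2.4 in naive cells (1.34), which has near copies beside it, so its reads may be shared. Irf4 (42.7 in Th1 cells, 32.6 in naive cells) and Irf8 (51.0 in Th1 cells, 38.1 in naive cells) lay above 0 but under 2-fold. The list median of -0.47 changed sign under quantile normalisation, to 0.09 with 1 fall left.

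Among 22 genes of the cytotoxic granule, 2 (9.09%) rose and 4 (18.2%) fell, against 2.89% and 13.5% of all gene areas. The risers Gzme, with 14.4 in Th1, 14.1 in Th2, 9.2 in the library labelled iTreg, 11.1 in the library labelled Th17 and 4.4 in naive cells (1.67), and Gzmd, with 11.6 in Th1 cells and 5.3 in naive cells (1.10), lie beside Gzmb and are close copies of each other. Ctsc, the protease that activates granzymes, had 7.4 in Th1 cells and 21.9 in naive cells (-1.54). Prf1, which encodes perforin, had 26.7 in Th1 cells and 41.0 in naive cells (-0.62). Chemokine and homing genes showed 1 rise and 6 falls (26.1%) among 23, with Cxcr4, a marrow homing receptor, at 18.2 in Th1 cells and 45.5 in naive cells (-1.31). Of 25 integrin and adhesion genes 6 (24%) fell and none rose, with Itga4 at 48.9 in Th1 cells and 156.6 in naive cells (-1.68). Cd44, the classic surface marker of antigen-experienced T cells, stayed level at 29.0 in Th1 cells and 27.4 in naive cells.

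Lists of general cell functions also held losses. Of 19 housekeeping genes 8 (42.1%) fell and none rose, with a median of -0.97 and a median naive signal of 36.4, in the decile with 28.7% lost. Ppia, which encodes cyclophilin A, had 13.6 in Th1 cells and 52.3 in naive cells (-1.93), and B2m, the class I MHC light chain, had 34.8 in Th1 cells and 88.4 in naive cells (-1.34). After quantile normalisation 2 of the 8 falls were left. Of 38 cell cycle genes 11 (28.9%) fell, of 30 mTOR and PI3K genes 12 (40%), of 27 glycolysis genes 6 (22.2%) and of 25 apoptosis genes 6 (24%), and none in these lists rose. At the median naive signals of these lists, which were 22.05, 30.6, 30.6 and 38.5, the lost share of all gene areas was 10.8%, 17.3%, 17.3% and 28.7%. No test sets these lists apart from gene areas of like naive signal. Ccnd3, the lymphocyte D-type cyclin, had 53.6 in Th1 cells and 177.9 in naive cells (-1.73). Pik3cd, the leukocyte PI3-kinase catalytic subunit, had 66.0 in Th1 cells and 213.2 in naive cells (-1.69), and Pdk1, which inhibits pyruvate dehydrogenase, had 22.0 in Th1 cells and 79.2 in naive cells (-1.84). Genes above 0 were scattered among them, such as Gapdh with 57.4 in Th1 cells and 38.2 in naive cells (0.58) and Cdkn1a, the cell cycle inhibitor p21, with 67.7 in Th1 cells and 39.7 in naive cells (0.77). Losses thus also lay at growth genes that activated T cells use.

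The enzymes of DNA methylation and its oxidation were measured too. Of 27 genes 7 (25.9%) fell and none rose, with a median naive signal of 28.3, in the decile with 17.3% lost. Tet3, an oxidising enzyme, had 35.4 in Th1, 48.0 in Th2, 46.8 in the library labelled iTreg, 32.9 in the library labelled Th17 and 94.3 in naive cells (-1.41), a call that ended under quantile normalisation. Tet1 had 23.2 in Th1 cells and 41.4 in naive cells (-0.83). Tet2, the enzyme the study deleted in part of its mice, had 26.3 in Th1, 25.8 in Th2, 20.8 in the library labelled iTreg, 21.3 in the library labelled Th17 and 31.9 in naive cells (-0.28). The signal over Tet2 was near the shift of the whole comparison, and no library stood apart there. Of 39 histone modifiers 12 (30.8%) fell, among them Mll2, a histone methyltransferase, with 25.9 in Th1 cells and 88.5 in naive cells (-1.76). The list's median naive signal of 26.7 lies in the same decile, with 17.3% lost. Of 33 Ets, Runx and related lineage factors 11 (33.3%) fell and none rose. Their median naive signal of 39.2 lies in the decile with 28.7% lost, so their share of losses is near that of their level. Bcl11b, which keeps T cell identity, had 54.9 in Th1 cells and 152.1 in naive cells (-1.47). Of 25 NF-kB and NFAT genes 2 (8%) fell, none of them after centring. That share is below the 13.5% of all gene areas and the 28.7% of the decile of their median naive signal, 35.6.

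Genes of other tissues had medians nearer 0. Liver and muscle genes had medians of 0.10 each, neuronal -0.13, erythroid -0.11 and imprinted genes -0.05, with 2, 1, 2, 1 and 0 falls among 19, 18, 20, 13 and 20 genes and no rise. These shares of 10.5%, 5.56%, 10%, 7.69% and 0% compare with 13.5% lost over all gene areas. The median naive signals of these lists, 8.9 to 18.2, lie in deciles with medians between -0.27 and 0.07 and lost shares of 2.02% to 6.53%. After centring all 5 list medians were above 0. Of 19 B cell genes 2 (10.5%) fell and none rose, and of 19 follicular helper and exhaustion genes 3 (15.8%) fell and none rose. Of 17 myeloid genes 2 (11.8%) fell and 1 (5.88%) rose. The lost shares of these lists are near the 13.5% of all gene areas. Among 23 CD8 and NK genes, 2 (8.70%) rose and 4 (17.4%) fell, against 2.89% and 13.5% of all gene areas. Klrc1, which encodes the NK receptor NKG2A, had 16.7 in Th1, 9.6 in Th2, 12.2 in the library labelled iTreg, 8.0 in the library labelled Th17 and 4.5 in naive cells (1.85). Its input signal was 0.4, low beside the median of 1.8, and the number of reads behind it is unknown. Cd8a, the coreceptor of CD8 T cells, had 26.3 in Th1, 18.3 in Th2, 26.3 in the library labelled iTreg, 23.3 in the library labelled Th17 and 78.0 in naive cells (-1.56), and the 2 CD8 markers, neither higher in Th1, summed to 72.6 in Th1 cells and 158.2 in naive cells. Cd79a, the B cell receptor chain, had 49.3 in Th1 cells and 159.2 in naive cells (-1.69), and the 4 B cell markers, 1 of them higher in Th1, summed to 106.6 in Th1 cells and 228.3 in naive cells. The 4 myeloid markers, 1 of them higher in Th1, summed to 66.6 in Th1 cells and 107.5 in naive cells, and the 2 NK markers, both higher in Th1, to 33.6 in Th1 cells and 24.5 in naive cells. The B cell sum rested mostly on Cd79a: Ms4a1 had 6.7 in Th1 cells and 8.0 in naive cells, and Pax5 had 15.2 in Th1 cells and 12.9 in naive cells. The median of the 19 B cell genes was -0.25, near that of all gene areas, with 7 above 0. The part of other cells in the naive library was not tested.

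**Figure D3:**
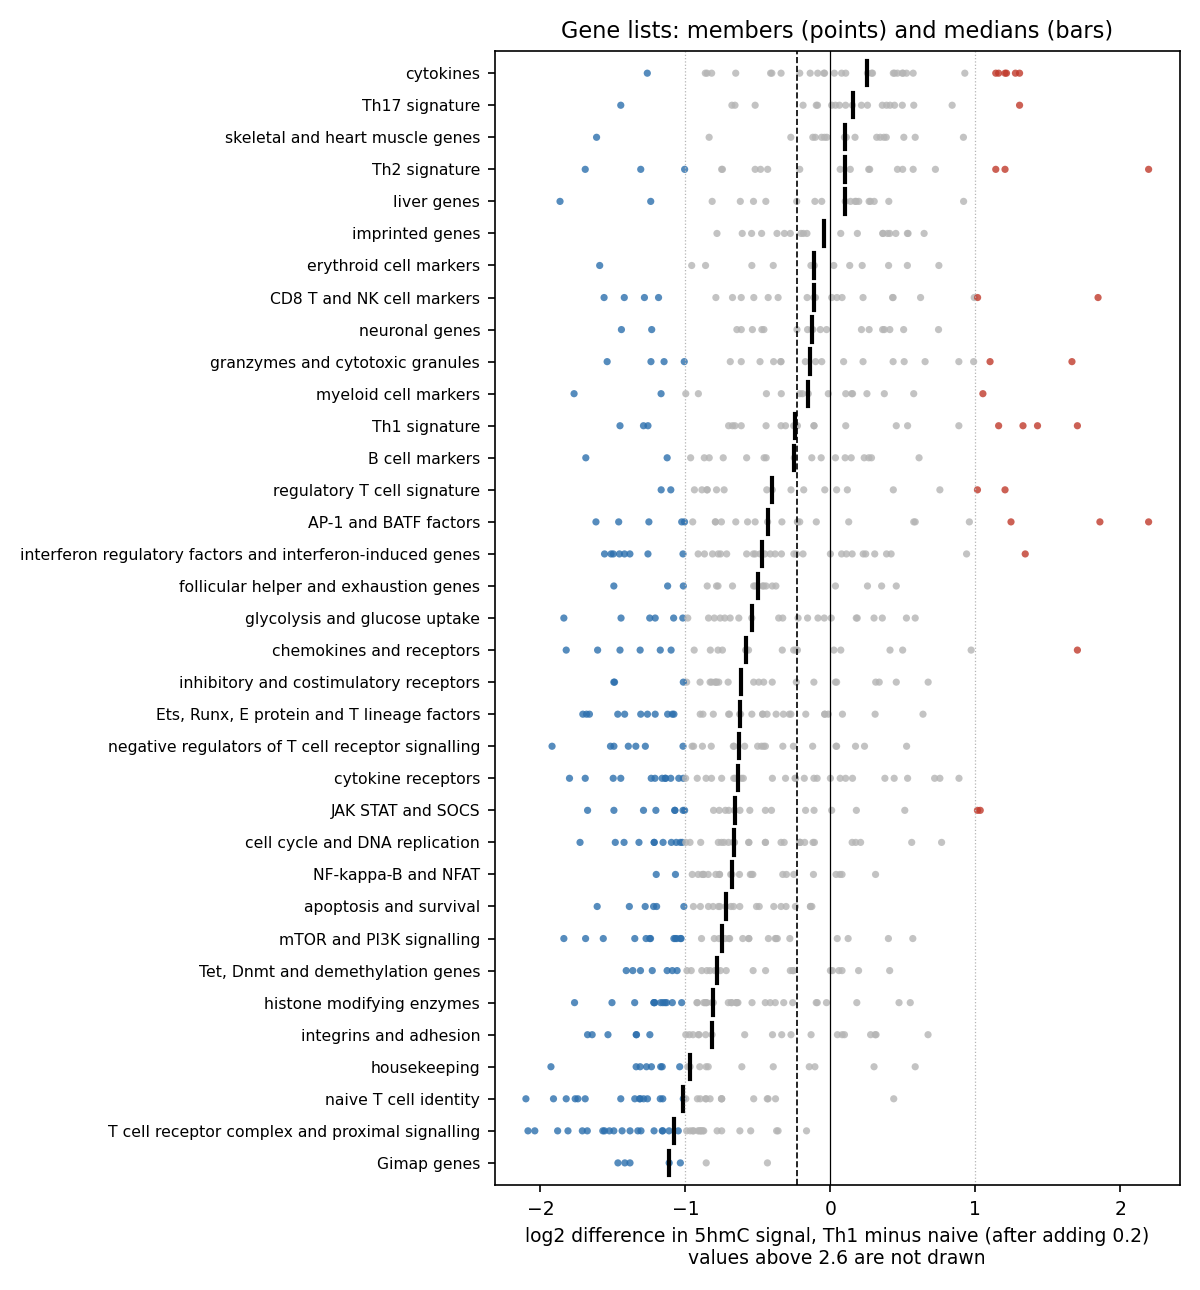
Log2 difference of 5hmC, Th1 minus naive, for the members within the axis (points, red where gained and blue where lost) of 35 gene lists, with the list median as a bar and the median of all gene areas (-0.23) as a dashed line. Gimap, T cell receptor and naive identity genes hold the lowest medians, and cytokines the highest at 0.26.

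The falls differed in how far they withstood another scaling. Dusp6, S1pr1, Satb1, Lef1, Tcf7, Lat, Lck, Cd3e, Rltpr, Dgka, Jak1, Tnfrsf1a, Il17rb, Ppia, Mll2, Pik3cd, Pdk1, Ccnd3, Nfe2l2 and Cd79a stayed at least 2-fold lower in Th1 cells under both scalings. Bach1, Cbl, Ptpn6, Gimap1, Il27ra, Irf9, Tap1, B2m, Cxcr4, Bcl11b and Cd8a stayed so after centring and came under 2-fold under quantile normalisation.

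The 15 largest differences each way were taken among 13381 named gene areas with a higher value of at least 10 and no background mark. The gains reported here were led by Lcn13, a lipocalin gene, with 15.4 in Th1, 26.1 in Th2, 9.2 in the library labelled iTreg, 11.4 in the library labelled Th17 and 2.5 in naive cells (2.53), and Fezf1, a developmental zinc finger factor, with 12.1 in Th1 cells and 2.3 in naive cells (2.30). Nfil3, Batf3, Klrc1 and Ccl5 were also among them. S1pr3, a sphingosine phosphate receptor, had 86.1 in Th1, 45.9 in Th2, 44.9 in the library labelled iTreg, 67.4 in the library labelled Th17 and 21.5 in naive cells (1.99). Bcl2l10, a BCL-2 family member, had 35.0 in Th1, 15.7 in Th2, 19.6 in the library labelled iTreg, 9.3 in the library labelled Th17 and 8.5 in naive cells (2.02), with Th1 well above the rest. Pla1a, a phospholipase, had 39.9 in Th1 cells and 11.7 in naive cells (1.75). The remaining gains, at Awat2, Dnm3os, Defb45, Lcn11 and Vgll2, lay between 1.80 and 2.02, with Th1 signals of 11.6 to 18.5.

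The largest loss was at Trdc, the constant region of the T cell receptor delta chain, with 1.9 in Th1, 2.1 in Th2, 3.3 in the library labelled iTreg, 0.5 in the library labelled Th17 and 19.9 in naive cells (-3.26). Its input signal in Th17 cells was 0.1, and its 5mC signal was 0.1 in Th1 cells and 0.6 in naive cells. Trdv5, a delta variable segment, had 4.9 in Th1 cells and 25 in naive cells (-2.30) with an input signal of 0.2. The delta locus is deleted from chromosomes that rearrange the alpha chain, and input DNA was near 0 here, so loss of DNA and loss of 5hmC cannot be told apart at these 2 genes. Tuba4a, an alpha tubulin (chr1:75211548-75215827), had 9.3 in Th1, 10.7 in Th2, 21.2 in the library labelled iTreg, 13.9 in the library labelled Th17 and 69.3 in naive cells (-2.87). Smpd2, a neutral sphingomyelinase, had 7.2 in Th1, 22.1 in Th2, 18.6 in the library labelled iTreg, 11.1 in the library labelled Th17 and 56.1 in naive cells (-2.93). Th1 was the lowest library at both. Map4k2, a kinase of the stress pathways, had 14.7 in Th1 cells and 70.8 in naive cells (-2.25), and Gli1, the Hedgehog effector, had 19 in Th1 cells and 97.7 in naive cells (-2.35). Mrpl27 (-2.41) and Mrps2 (-2.27), which encode mitochondrial ribosomal proteins, were in the same group. The rest, Nradd, Mfsd10, Ptgds, Lypd3, H2-Q2, Armcx2 and Zfp191, lay between -3.04 and -2.25.

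Losses came in runs of neighbours and gains seldom did. A run is 3 or more gene areas in a row, in chromosome order, that all changed the same way by 2-fold, with background gene areas left out. There were 254 lost runs holding 976 gene areas, or 31.7% of the 3081 lost, and 11 gained runs holding 40, or 6.26% of the 639 gained. The lost share of all gene areas, 13.5%, also exceeds the gained share, 2.89%, and how many runs that alone would give was not tested. Overlapping gene areas share reads, so a run holds fewer separate measurements than members. The longest lost run held 13 gene areas, 11 of them not overlapping, over 171 kb (chr19:4135422-4305954). Signals there ran from 16.6 to 32.9 in Th1 cells and 39.0 to 86.2 in naive cells. It held Coro1b, an actin regulator, with 20.9 in Th1 cells and 86.2 in naive cells, and Adrbk1, a receptor kinase, with 19.3 in Th1 cells and 81.0 in naive cells. The run of 10 on chr5:31458378-31629674 had medians of 12.2 in Th1 cells and 29.9 in naive cells, and the run of 9 on chr10:80003670-80164564 had 19.8 in Th1 cells and 58.3 in naive cells. These runs depended on the scaling. After centring, 10 of the 13, 6 of the 10 and 7 of the 9 stayed past 2-fold, and after quantile normalisation 6, 7 and 3, so none of the 3 runs held whole under either. In the longest, Cabp4 (-0.81), Clcf1 (-0.92) and Ssh3 (-0.99) ended after centring.

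Of the 5 lost runs with 8 members, 3 held T cell genes. The run on chr9:44601861-44817672 ended with Cd3g (14.2 in Th1 cells, 50.3 in naive cells), Cd3d (17.1 in Th1 cells, 40.0 in naive cells) and Cd3e, and also held Mll1, a histone methyltransferase, with 14.3 in Th1 cells and 32.1 in naive cells. The run on chr4:129138922-129296336 held Lck beside Hdac1, a histone deacetylase, with 49.7 in Th1 cells and 109.0 in naive cells. The run on chr6:124613121-124729735 held Ptpn6, Emg1, a ribosome assembly factor (45.0 in Th1 cells, 179.4 in naive cells), and Phb2, a prohibitin (49.5 in Th1 cells, 162.8 in naive cells). In each, genes of T cell function and neighbours with other functions fell together. The run on chr17:34011930-34092585, in the MHC region, held Daxx, a histone chaperone (26.3 in Th1 cells, 102.7 in naive cells), and Tapbp, a peptide-loading protein (65.4 in Th1 cells, 135.1 in naive cells). Of the 8 members of each of the 5 runs, 3 to 6 stayed past 2-fold after centring and 3 to 5 after quantile normalisation, and the falls of Cd3d, Mll1, Hdac1 and Tapbp ended after centring.

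Gained runs lay in clusters of near copies with low signal. The longest held 7 Rhox homeobox genes on chrX:34894843-34990665, with 0.7 to 12.3 in Th1 cells and 0 to 5.9 in naive cells. Rhox4e was listed at 0 in naive cells. By name stem, 12 of 30 Rhox gene areas (40%) and 16 of 34 Mup genes (47.1%), which encode major urinary proteins, were gained and none lost. The gained share was 2.89% over all gene areas and 18.3% in the lowest naive decile, where the median naive signals of both families lie. The median differences of the Rhox and Mup genes were 0.51 and 0.87. Both medians stayed above 0 under quantile normalisation, and centring raises every difference. The Mup genes had median signals of 2.7 in Th1 cells and 1.35 in naive cells, and the Rhox genes 4.65 in Th1 cells and 3.9 in naive cells. Reads from near-identical copies can be shared or dropped in counting, so these gains are uncertain.

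At the effector loci, gains lay beside gene areas that did not gain. Within 200 kb of Tbx21, 15 neighbours had a median of -0.56, and 1 rose and 3 fell. The riser was the adjacent Tbkbp1, an adaptor of the kinase TBK1, with 65.3 in Th1, 36.4 in Th2, 29.3 in the library labelled iTreg, 24.5 in the library labelled Th17 and 32.3 in naive cells (1.01). Th1 was thus also the highest library at this neighbour. Sp2, a Sp-family factor in the same window, fell to 26.7 in Th1 cells, against 88.1 in naive cells (-1.71). Around Ifng, 9 neighbours had a median of 0.32, with 6 above 0, and the 2 that passed 2-fold were predicted genes with signals of at most 0.5. Around Gzmb, 10 neighbours had a median of -0.08 and the 2 risers were Gzme and Gzmd, with Gzmn at 0.99 and Gzmb itself at 0.89. Around Nfil3 the 2 neighbours Auh and Ror2 stayed within 2-fold.

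The Il4, Il10 and Il2 clusters differed. At the Il4 locus, Il4 differed by -0.21, Il13 by 0.46, Il5 by 0.57 and Rad50, which holds the locus control region, by 0.26. In the same window Irf1 fell, and so did Gdf9, an oocyte growth factor, to 13.1 in Th1 cells, against 43.6 in naive cells (-1.72). At the Il10 locus, Il10 and Il24 rose, Il20 differed by 0.50 and Il19 by -0.04, while Rassf5, a regulator of integrin adhesion, fell to 20.4 in Th1 cells, against 57.8 in naive cells (-1.49). Around Il2, none of 5 neighbours passed 2-fold. Among these clusters, only the Il10 locus held both gains and a loss. That loss, at Rassf5, ended under quantile normalisation (-0.96).

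The loci of the naive factors fell with different neighbours. Around Tcf7, 3 of 7 neighbours fell, among them Skp1a, a ubiquitin ligase subunit, with 22.0 in Th1 cells and 71.7 in naive cells (-1.70), and around Ccr7 3 of 10, among them Igfbp4 with 38.1 in Th1 cells and 123.5 in naive cells (-1.69) and Rara, a retinoic acid receptor, with 45.2 in Th1 cells and 109.7 in naive cells (-1.28). Around Lef1 none of 4 neighbours fell, and their median was -0.60 against -1.74 for Lef1 itself. Gm20098, the 1 neighbour of Satb1, fell to 34.2 in Th1 cells, against 72.0 in naive cells (-1.07), a call that ended after centring.

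**Figure D4:**
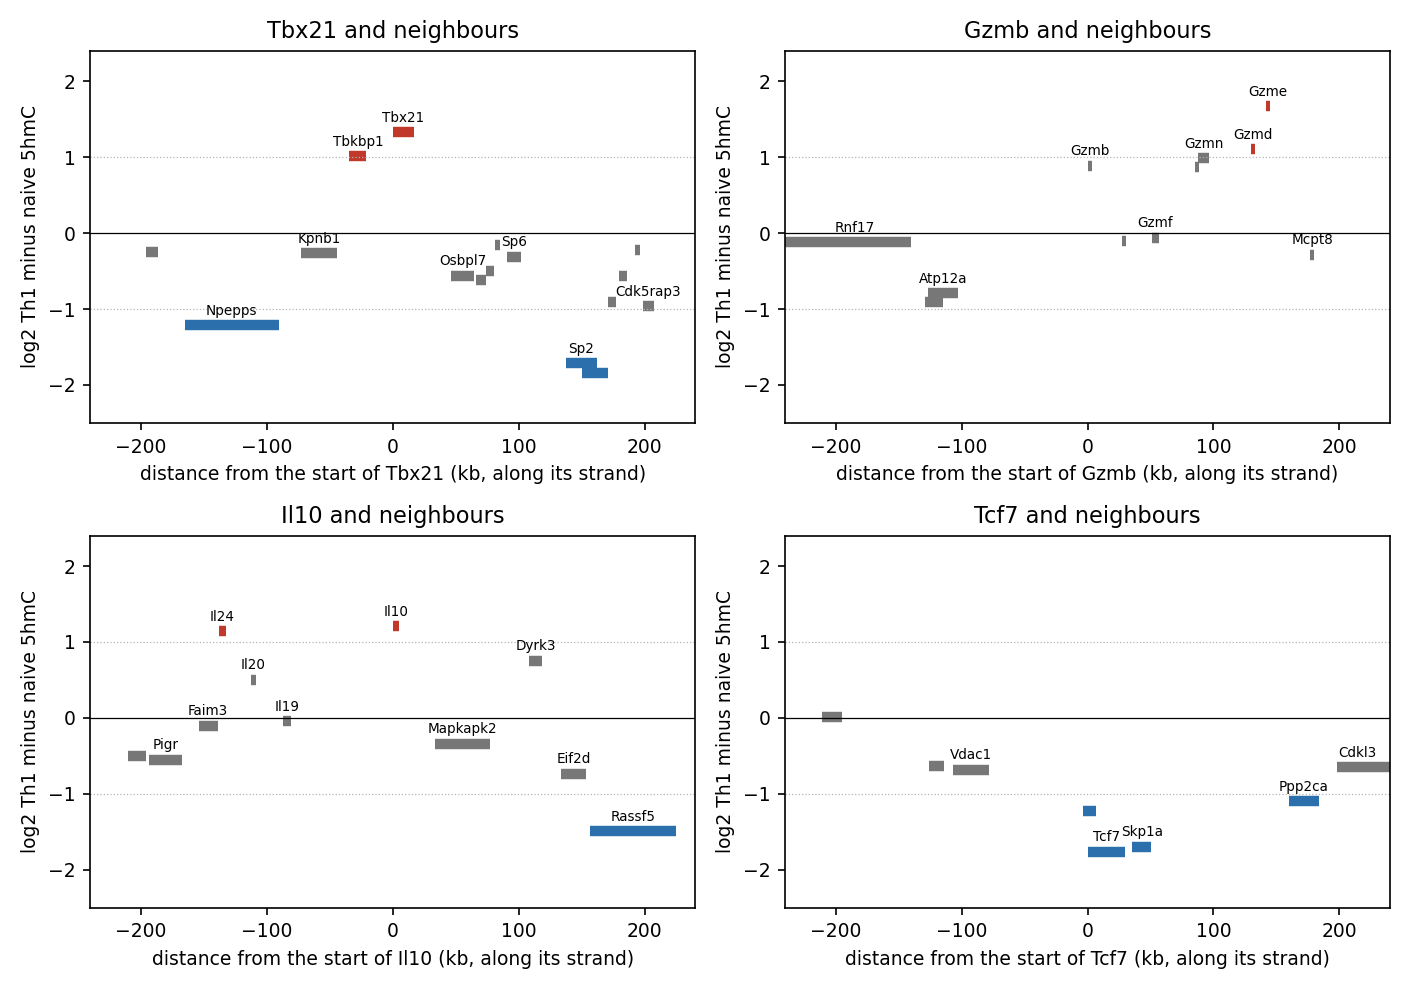
Log2 difference of 5hmC, Th1 minus naive, for each gene area within 200 kb of Tbx21, Gzmb, Il10 and Tcf7, by distance in kb from the start of that gene along its strand. Each bar spans a gene area, red where gained and blue where lost, and crowded or predicted gene areas carry no name. Tbx21 (1.33) and its neighbour Tbkbp1 (1.01) stand above neighbours with a median of -0.56, and Tcf7 (-1.76) lies beside Skp1a (-1.70).

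The 5mC libraries, which the calls of gained and lost did not use, were compared in the same classes. They entered only the choice between copies of a repeated name. Their signals were low, with medians between 0.7 and 0.8 per library and values given to 1 decimal, so single genes cannot be read. Of the lost gene areas, 58.6% had a higher 5mC value in Th1 cells than in naive cells and 23.8% a lower one, with medians of 1.1 in Th1 cells and 0.9 in naive cells. Of the gained gene areas, 28.0% had a higher 5mC value and 40.6% a lower one, with medians of 0.4 in both. In the remaining gene areas the shares were 39.4% and 37.8%. The share with a higher 5mC value in Th1 cells was thus largest in the lost gene areas and smallest in the gained ones.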

How the data were processed

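Fragments of genomic DNA were denatured and immunoprecipitated with antibodies to 5hmC or 5mC or with IgG, and sequenced as 12 libraries, 1 per cell type and antibody, with no replicates. The submitters' processing notes name CASAVA 1.7.0 and build mm9. The table deposited by the authors gives 1 signal value per gene area and library, to 1 decimal. Not given in the sources used here are aligner settings, the counting step, any flanks, strand use and how libraries were scaled. Depth is unknown, so no interval or detection limit could be set. The coordinates of gene areas are those of the authors' table on mm9, whose counting from 0 or 1 is not stated. All 12 value columns were mapped by title to a sample, which left 0 unused.

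For a repeated name, 1 copy was kept, that with the largest mean signal across all 5mC and 5hmC columns. The difference was log2(Th1 + 0.2) minus log2(naive + 0.2), and a call needed 1 or more in either direction. IgG at 50% or more of the higher 5hmC value marked background. The calculation was tested on simulated data. Alternatives were a pseudocount of 1, median centring, quantile normalisation, length limits of 1000 and 10000 bp, filters on low values and on IgG, and removal of repeated or overlapping gene areas. Python 3.11.15, numpy 2.4.6, pandas 2.3.3 and matplotlib 3.10.9 were used. Promoters came from RefSeq on GRCm38.p6, matched by gene ID, and a gene with several promoters took the median of their CG counts. Of 17043 protein-coding genes off chromosome 18, 13956 (81.9%) were matched.

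The gene lists and the rule for named genes were chosen with earlier results of these data known. Named were 20 fixed genes, the 15 largest differences each way, the 2 highest and 2 lowest members of each list described, the members of the 4 longest runs each way and the gene areas within 200 kb of 12 loci. Further list members were named for their function after their values were seen. A few genes that the rule names are not reported here.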

Additional observations from a re-analysis of the deposited data

How the results depend on the processing

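Scaling had the widest effect, since the authors' scaling is not given: median centring gave 1258 gains and 1707 losses with a median of 0, and quantile normalisation 1286 gains and 1247 losses with a median of 0. Gains, many of them at low signal, also moved with the low end: 404 were left with a pseudocount of 1, 329 with a filter on low values and 285 among gene areas whose higher value was at least 10, a limit chosen after seeing the data that put the median at -0.36. A length limit of 1000 bp gave 1351 gains, and one of 10000 bp gave 283 gains and 1772 losses. Leaving out background, repeated or overlapping gene areas gave 584 to 657 gains and 2650 to 3086 losses. Of 35 lists, 30 had a median below 0, 24 after centring and 22 after quantile normalisation. Of 953 named results, centring ended the call of 95 and made 13, quantile normalisation ended 180 and made 28, and a pseudocount of 1 ended 44; none changed sign while called. No paired analysis was possible because each group has 1 library, which also left no replicate to leave out. Libraries from further mice would be needed to give any difference an error, and the IgG and input DNA of Th17 cells may not show the background of Th1 or naive cells.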

Other observations

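Several immune genes were too short for the comparison. Of 60 such members of the lists, 2 were at least 2-fold higher in Th1 cells and 11 at least 2-fold lower, with a median of -0.29. Over all 14669 gene areas under 3000 bp the median was -0.01, with 14.3% higher and 18.4% lower. Ccl3, an inflammatory chemokine, had 14.9 in Th1 cells and 13.6 in naive cells, and Ccl4, its relative, had 15.4 in Th1 cells and 11.8 in naive cells. Tnf, the inflammatory cytokine, had 25.2 in Th1 cells and 42.1 in naive cells (-0.74), and its neighbours Lta and Ltb, which encode lymphotoxins, had 39.9 and 36.1 in Th1 cells, against 66.2 and 86.6 in naive cells (-0.73 and -1.26). The whole TNF cluster thus lay below naive cells. Isg15, a ubiquitin-like interferon-induced protein, had 41.0 in Th1 cells and 100.8 in naive cells (-1.29). Tnfrsf4 and Tnfrsf18, the costimulatory receptors OX40 and GITR, had 74.6 and 79.3 in Th1 cells, against 52.5 and 59.7 in naive cells (0.51 and 0.41). Cxcr3 had 15.4 in Th1 cells and 18.2 in naive cells.

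The highest 5hmC signals of the table lay at 3 gene areas, named after their values were seen. Tor2a had 841.9 in Th1 cells and 2490.0 in naive cells (-1.56), Ttc16 had 435.3 in Th1 cells and 1262.4 in naive cells (-1.54), and Sh2d3c had 174.7 in Th1 cells and 535.3 in naive cells (-1.61). Their IgG signals were 107.9, 54.3 and 29.7, far above the median of 1.0 and below the mark for background.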
